A study of Mus musculus with 12 samples.

Results

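In the forebrain of E12.5 mouse embryos, 519 of 55385 annotated promoter windows (0.937%) carried a wild type H3K27me3 summit near the gene start and neither an Eed nor an H3K27ac summit there. Each window covered 2 kb around a gene start, and a summit is the highest point of a called peak. A window entered the set when its centre lay within 1 kb of a wild type H3K27me3 summit and within 1 kb of no wild type Eed summit and no wild type H3K27ac summit. The choice therefore rests on the wild type H3K27me3, Eed and H3K27ac libraries, whose values at these windows are given as description with no test. Of 2872 windows that had an H3K27me3 summit but lacked H3K27ac, these were 18.1%, and the other 2353 had an Eed summit within 1 kb. A further 672 of the 3544 windows with an H3K27me3 summit also had an H3K27ac summit and were left aside.

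The tissue was untreated forebrain of strain C57BL/6 and of 2 genotypes, wild type and EedcKO. The label EedcKO names a conditional knockout of Eed, and the driver of the deletion, the deleted part, how many embryos went into a library and their sex are not known from the sources read here. Eed and its input were measured by X-ChIP, which is chromatin immunoprecipitation after crosslinking. H3K27me3, H3K27ac, RNA-Pol2 and the IgG control were measured by CUT&Tag, in which an antibody directs a transposase to cut and tag nearby chromatin. With 1 library per genotype and target, 12 in all, differences between genotypes rest on single libraries and carry no p-value. In bulk tissue, fewer cells bearing a mark and less of the mark per cell cannot be told apart.

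Polycomb repressive complex 2 places methyl groups on lysine 27 of histone H3, and the trimethylated form, H3K27me3, marks silent genes. Eed is a core subunit of that complex that also binds the mark itself, by which the complex is held and stimulated on chromatin already marked. In mammals the complex settles at CpG-rich stretches, and from there the mark can spread over neighbouring chromatin. Acetylation of the same lysine, H3K27ac, marks active promoters and cannot occupy a residue that is methylated.

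Promoter sequences show how these windows differ in base composition. For 214 of the 519 windows a RefSeq promoter (GRCm38.p6, 250 bases before to 50 bases after the start) could be matched. The following 3 promoters held the highest wild type H3K27me3 over IgG among those with an observed over expected CpG ratio of at least 0.6, and CpG pairs are in capitals. They lie at chr2:118703914-118704213 (minus strand), chr9:67832281-67832580 (minus strand) and chr4:138396409-138396708 (minus strand), and hold 24, 14 and 20 CpG pairs.
Ankrd63: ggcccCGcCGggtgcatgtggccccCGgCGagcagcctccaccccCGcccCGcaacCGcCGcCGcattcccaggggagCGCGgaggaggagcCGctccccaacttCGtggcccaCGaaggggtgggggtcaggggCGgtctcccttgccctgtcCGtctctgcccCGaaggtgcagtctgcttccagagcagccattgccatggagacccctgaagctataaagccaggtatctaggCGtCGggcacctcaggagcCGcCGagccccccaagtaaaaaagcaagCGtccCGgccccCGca
C2cd4a: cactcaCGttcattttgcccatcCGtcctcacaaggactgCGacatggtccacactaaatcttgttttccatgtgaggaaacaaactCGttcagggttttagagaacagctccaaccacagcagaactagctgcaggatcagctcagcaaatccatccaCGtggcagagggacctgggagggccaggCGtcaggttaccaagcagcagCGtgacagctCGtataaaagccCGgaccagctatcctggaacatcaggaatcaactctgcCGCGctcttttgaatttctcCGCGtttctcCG
Fam43b: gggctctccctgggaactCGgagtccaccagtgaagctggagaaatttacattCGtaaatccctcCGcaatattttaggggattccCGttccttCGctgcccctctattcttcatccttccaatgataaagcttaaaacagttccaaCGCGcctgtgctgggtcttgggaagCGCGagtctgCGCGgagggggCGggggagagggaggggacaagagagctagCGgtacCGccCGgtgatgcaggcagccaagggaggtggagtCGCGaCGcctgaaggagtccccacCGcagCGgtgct

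The next 3 had the highest wild type H3K27me3 over IgG among promoters with a ratio below 0.6. They lie at chr7:110627407-110627706 (plus strand), chr2:10370201-10370500 (plus strand) and chr2:122298178-122298477 (minus strand), and hold 9, 9 and 10 CpG pairs.
Adm: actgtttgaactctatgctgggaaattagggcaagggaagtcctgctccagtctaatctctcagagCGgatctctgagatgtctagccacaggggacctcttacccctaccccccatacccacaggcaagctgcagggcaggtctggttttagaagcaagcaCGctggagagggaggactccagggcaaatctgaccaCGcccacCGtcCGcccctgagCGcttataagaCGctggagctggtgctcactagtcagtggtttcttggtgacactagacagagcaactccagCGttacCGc
Sfmbt2: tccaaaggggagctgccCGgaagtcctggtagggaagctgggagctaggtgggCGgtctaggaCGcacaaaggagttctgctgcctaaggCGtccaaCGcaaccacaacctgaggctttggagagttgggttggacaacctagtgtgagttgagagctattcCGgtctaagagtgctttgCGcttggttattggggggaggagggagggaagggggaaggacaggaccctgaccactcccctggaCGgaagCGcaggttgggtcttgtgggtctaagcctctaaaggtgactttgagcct
Duox2: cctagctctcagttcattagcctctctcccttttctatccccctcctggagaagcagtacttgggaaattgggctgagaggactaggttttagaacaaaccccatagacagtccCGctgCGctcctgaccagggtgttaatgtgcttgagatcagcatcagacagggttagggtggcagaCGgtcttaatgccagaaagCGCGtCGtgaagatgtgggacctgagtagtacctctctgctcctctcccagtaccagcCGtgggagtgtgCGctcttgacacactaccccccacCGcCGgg

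These 2 sets of 3 promoters, picked by their H3K27me3, also differed in wild type Eed. Ankrd63, C2cd4a and Fam43b gave 257, 69 and 119 Eed reads against 21, 21 and 28 input reads. Adm, Sfmbt2 and Duox2 gave 10, 14 and 10 Eed reads against 30, 17 and 20 input reads. The first 3 lay 1153, 1128 and 1160 bp from an Eed summit, just beyond the 1 kb of the rule, and the last 3 lay 2941, 2021 and 1716 bp away. Such a wide difference was not typical of the matched promoters. The 51 with a ratio of at least 0.6 had a median of 16 Eed reads, and the 163 below it had 12.

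Over all matched promoters, the windows without an Eed summit were poorer in CpG. Their median observed over expected CpG was 0.42, against 0.71 for the 1372 matched promoters with H3K27me3 and an Eed summit and 0.57 for all 17070 matched promoters. A ratio of at least 0.6 was reached by 51 of 214 (23.8%, 95% Wilson interval 18.6 to 30), against 67.9% with an Eed summit and 48.1% of all. Among protein-coding genes alone the shares were 23.4%, 68.1% and 53.1%. Only 41.2% of the set had a matched sequence, under the 80% needed, so as a check on the whole set this is void and it describes the matched promoters only. The motif CGCG, searched as those letters and the same on both strands, was in 35.5% of the matched promoters of the set, 75% of those with an Eed summit and 49.6% of all. TATAAA, searched on both strands, was in 14%, 7.22% and 12%.

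**Figure D1:**
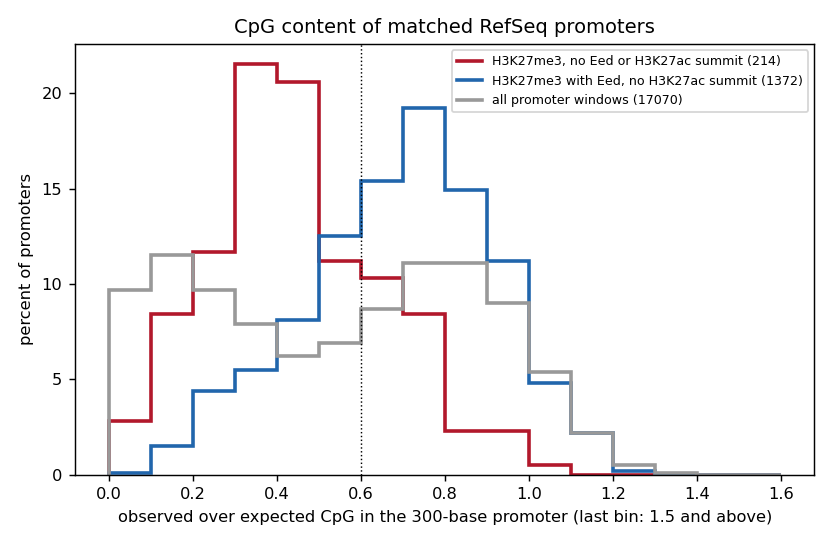
Percent of matched RefSeq promoters (vertical axis) by observed over expected CpG in bins of 0.1 (horizontal axis, a ratio with no unit), for windows with H3K27me3 and no Eed or H3K27ac summit (red, 214), with H3K27me3 and an Eed summit (blue, 1372) and all windows (grey, 17070). The dotted line marks 0.6. The red outline peaks in the bin starting at 0.3 with 21.5% of promoters and the blue in the bin starting at 0.7 with 19.2%.

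Levels within the set were also compared by CpG content. The 163 below 0.6 had a median wild type H3K27me3 of 25 RPKM (promoter reads scaled to window length in kilobases and to the library's promoter total), and the 51 at or above 0.6 had 17.4 RPKM. Wild type Eed was 3.04 and 4.06 RPKM in the same order. At promoters with an Eed summit the CpG-rich ones had 32.9 RPKM of Eed and the CpG-poor ones 20.3 RPKM.

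Before the genotypes are compared, the labels of 2 libraries need a caution. Over the 519 windows, the library labelled EedcKO H3K27ac correlated with wild type H3K27me3 at r = 0.963 and with wild type H3K27ac at r = -0.0502 (Pearson, log2 RPKM). The library labelled EedcKO H3K27me3 correlated with wild type H3K27ac at r = 0.67, with wild type RNA-Pol2 at 0.758 and with wild type H3K27me3 at 0.0204. These correlations run across windows of single libraries, which are not independent replicates. The EedcKO IgG control itself correlated with wild type H3K27ac at r = 0.547 and with wild type RNA-Pol2 at 0.641. The library labelled EedcKO H3K27ac therefore goes against its label in this respect. That labelled EedcKO H3K27me3 was near its IgG level (median log2 ratio -0.17), and whether its label holds was not tested. The medians and 2-fold counts between genotypes that use either library are given as labelled and with the other library in its place. The check of the deletion itself cannot be made from these files, since the Eed promoter window may lie outside the deleted part. At that window the wild type Eed library held 121 reads against 27 input reads, and the EedcKO library 40 against 19. These antibody reads are not scaled for depth and do not measure the deletion. Of 8 forebrain marker promoters, 6 had wild type H3K27ac at least 2-fold over IgG, 3 had RNA-Pol2 and 7 also had H3K27me3. Markers of endothelial, erythroid and mesenchymal cells had H3K27ac that high at 0 of 6, 0 of 5 and 0 of 6 promoters, and microglial markers at 1 of 5. None of these marker promoters was in the set. The promoter reads per library ranged from 948955 to 3842779, so that 1 read was worth 0.13 to 0.527 RPKM.

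In wild type forebrain the windows held clear H3K27me3 and little Eed. The median window had 137 H3K27me3 reads against 30 IgG reads and 12 Eed reads against 23 input reads. Raw reads are not scaled for depth, and the wild type Eed library held 1972842 promoter reads against 1018763 for its input. Wild type H3K27me3 held 3161526 against 1412310 for IgG. The whole range was 50 to 1934 reads for H3K27me3 and 0 to 350 for Eed. Wild type H3K27ac gave a median of 43 reads and RNA-Pol2 53, both near the IgG level once scaled. H3K27ac over IgG had a median log2 ratio of 0.02 and was at least 2-fold at 57 windows (11%, background 14.8%), although the rule had removed windows with an H3K27ac summit. In EedcKO forebrain the medians were 41 reads for Eed, 20 for input, 34 for the library labelled H3K27me3, 160 for that labelled H3K27ac, 70 for RNA-Pol2 and 36 for IgG. The windows with an Eed summit had 223 H3K27me3 and 109 Eed reads in wild type, and 288 reads in the library labelled EedcKO H3K27ac.

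**Figure D2:**
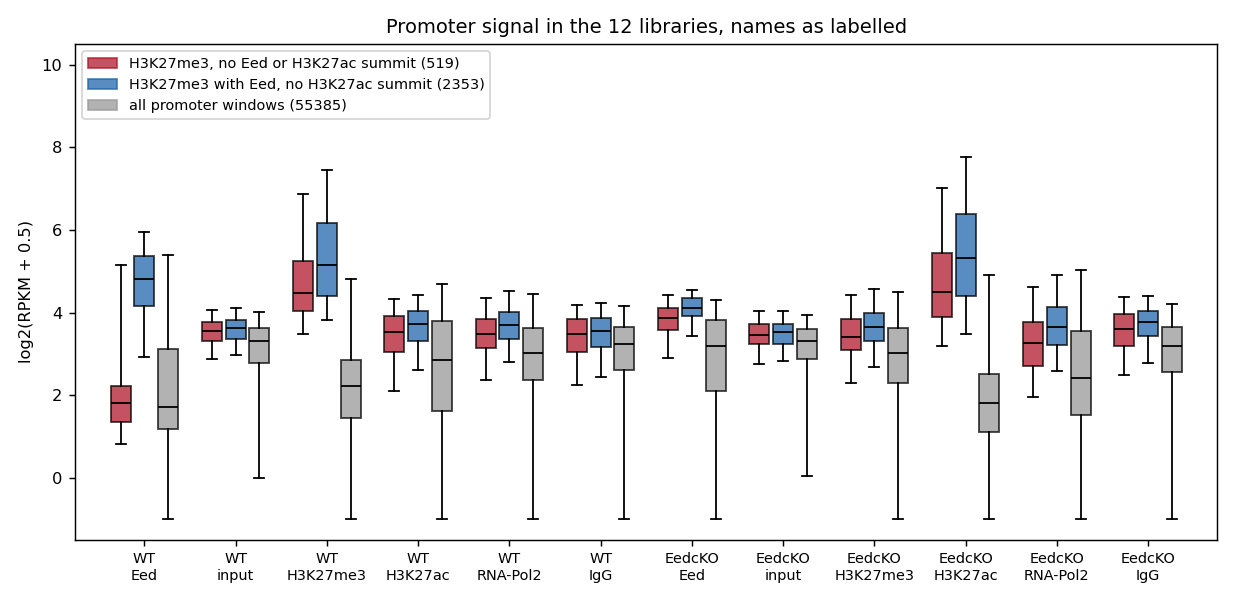
Signal as log2(RPKM + 0.5) on the vertical axis in each of the 12 libraries on the horizontal axis, for the 519 windows (red), the 2353 with an Eed summit (blue) and all 55385 windows (grey). Boxes span the middle 50% of windows with the median as a line, and whiskers reach from 5% to 95%. Red and blue separate most in wild type Eed, with medians of 1.82 and 4.81, and both stand above grey in wild type H3K27me3 and in the library labelled EedcKO H3K27ac.

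Scaled to its control, wild type H3K27me3 had a median log2 ratio of 1.19 (95% order-statistic interval 1.09 to 1.25) over IgG. It was at least 2-fold over IgG at 299 windows (57.6%), where 7.15% of all windows reached that level and the choice of windows fixed the direction. At 36 windows it was below IgG although a summit had been called nearby. The authors' score of the nearest H3K27me3 summit had a median of 8.61, against 18 at windows with an Eed summit. The set is thus made of weak and strong H3K27me3 together, with 53 windows at 500 reads or more and quartiles of 100 and 237 reads.

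Wild type Eed over input had a median of -1.75 (-1.85 to -1.66), below the median of -1.22 over all windows. It was below input at 461 of the 519 windows (88.8%, background 71.4%) and at least 2-fold over input at 40 (7.71%, background 13.7%). Of those 40 windows, 38 had an Eed summit within 2 kb, so that absence of a summit near the gene start did not mean absence of Eed reads in the window. Both H3K27me3 at least 2-fold over IgG and Eed below input were seen at 252 windows (48.6%, background 2.11%), with medians of 203 H3K27me3 reads and 12 Eed reads. The rule favoured both criteria, so nothing is read from this share. These 252 lay a median of 5486.5 bp from the nearest Eed summit.

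**Figure D3:**
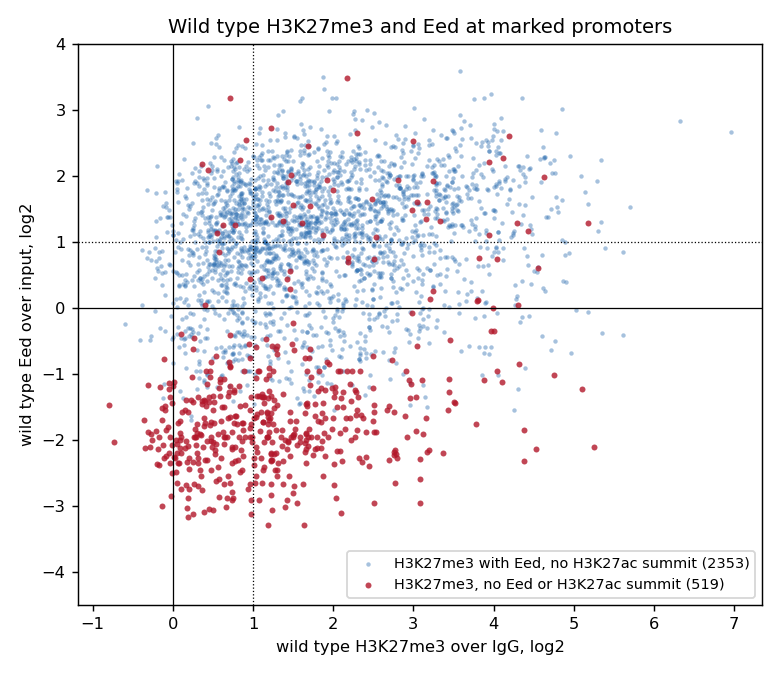
Wild type H3K27me3 over IgG (horizontal axis, log2 ratio) against wild type Eed over input (vertical axis, log2 ratio) for the 519 windows without an Eed summit (red) and the 2353 with one (blue). Solid lines mark 0 and dotted lines 1, which is 2-fold. Most red points, 461 of 519, lie below the horizontal 0 line, and 40 lie above the upper dotted line.

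The windows varied widely in their distance from Eed. The nearest Eed summit lay a median of 4333 bp from the window centre (quartiles 1651.5 and 12252 bp), and 153 windows (29.5%) were more than 10 kb away. The window of Cdh20, a cadherin, lay farthest, at 204175 bp. From the H3K27me3 summit itself, an Eed summit was within 1 kb at 62 windows (11.9%), against 95.6% of windows with an Eed summit. For 55 windows (10.6%) the centre was within 5 kb of a window with both H3K27me3 and Eed summits. Median wild type Eed was 5.07 RPKM at the 159 windows 1 to 2 kb from an Eed summit, and 2.53, 2.53 and 2.79 RPKM at 2 to 5 kb, 5 to 10 kb and over 10 kb. Median wild type H3K27me3 in the same order was 25.6, 19.5, 23.8 and 19.9 RPKM, with no steady fall over distance. The most marked windows lay nearer to Eed than the set did. Of the 53 with at least 500 H3K27me3 reads, 29 had an Eed summit within 2 kb, and their median distance was 1761 bp.

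**Figure D4:**
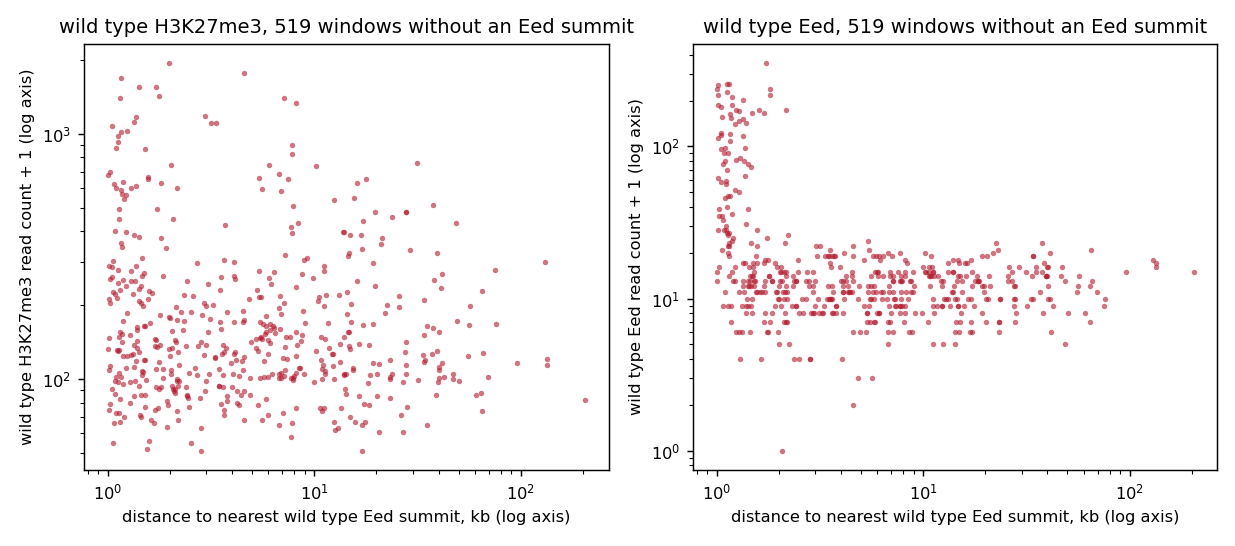
Read count plus 1 of wild type H3K27me3 (left, log axis) and wild type Eed (right, log axis) against the distance from the window centre to the nearest wild type Eed summit in kb (log axis), 1 point for each of the 519 windows. Eed counts above 100 cluster at the left edge, mostly between 1 and 2 kb, while H3K27me3 counts above 500 occur out to beyond 10 kb. Of the 53 windows with at least 500 H3K27me3 reads, 29 lie within 2 kb of an Eed summit.

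The edge of the rule shows how much turns on 1 kb. Just inside the set were Rasd2, a small GTPase gene of striatal neurons, at 1002 bp with 238 Eed and 10 input reads, and Gse1 at 1012 bp with 216 and 16. Also just inside were 9430024E24Rik at 1004 bp with 12 Eed and 30 input reads and Ch25h, the cholesterol 25-hydroxylase gene, at 1010 bp with 14 and 20. Just outside were Camk2b, a calcium/calmodulin kinase subunit gene, with an Eed summit at 999 bp and 114 Eed against 15 input reads, and Zfp536 at 999 bp with 104 against 29. Igfbp5 and Gm16263, both at 997 bp, had 36 and 39 Eed reads. Windows with many and with few Eed reads stood on both sides of the limit. Among named protein-coding genes of the set, Eed over input was highest at Rasd2 (log2 3.49), Nol4l (3.18), Gse1 (2.73), Ankrd63 (2.60), Whrn, the stereocilia scaffold gene whirlin (2.54), and Sowaha (2.21). Among the same genes it was lowest at Prss8 (-3.29), which encodes the protease prostasin and had 2 Eed and 19 input reads, followed by Ggt1 (-3.28), Rad9a (-3.13) and Syndig1 (-3.06).

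Protein-coding genes formed a smaller part of the set than of the windows with Eed. Of 519 windows, 281 (54.1%) belonged to protein-coding genes, against 79.6% of windows with an Eed summit and 38.7% of all windows. Read the other way, 13% of 2155 protein-coding windows marked by H3K27me3 but not H3K27ac lacked an Eed summit (95% Wilson interval 11.7 to 14.5). Among windows of other or unmatched type it was 33.2% of 717 (29.8 to 36.7). Long non-coding RNA genes gave 83 of 286 (29%), microRNA genes 16 of 43 (37.2%) and pseudogenes 19 of 40 (47.5%). All 7 snoRNA and all 3 ribosomal RNA windows with H3K27me3 alone lacked an Eed summit. Many of these windows are not separate loci, since 82 of the 519 overlapped another window of the set and the 519 shared 476 H3K27me3 summits. The 5S ribosomal RNA windows n-R5s136 and n-R5s146 had 148 and 187 wild type H3K27me3 reads, but also 7 and 0 input reads, and reads of such repeated copies may be placed at random or lost.

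Developmental regulators were among the genes with the highest H3K27me3. Hoxb13 (window chr11:96193316-96195315), the most posterior gene of the HoxB cluster, had 1773 wild type H3K27me3 reads against 28 IgG, a log2 ratio of 4.75 (95% interval from the counts 4.29 to 5.42). Its other wild type counts were 21 Eed, 23 input, 28 H3K27ac and 36 RNA-Pol2 reads. In EedcKO it had 54 Eed, 25 input, 73 RNA-Pol2 and 34 IgG reads, with 28 in the library labelled H3K27me3 and 2362 in that labelled H3K27ac. High H3K27me3 here stood with Eed below input once scaled (log2 -1.02) and RNA-Pol2 below IgG (-0.43) in wild type. Over all windows the medians were -1.22 for Eed and -0.16 for RNA-Pol2, so its Eed ratio was near that of the typical window. Rax, the homeobox gene of the eye field, had 1394 H3K27me3, 30 IgG, 26 Eed and 25 input reads in wild type, and 2000 reads in the library labelled EedcKO H3K27ac. Pou3f1, a POU homeobox gene of neural and glial lineages, had 599 H3K27me3 and only 6 IgG reads, which gave the highest ratio of the named genes, 5.18 (4.35 to 6.93). Its 173 Eed against 36 input reads placed it among the Eed-rich windows, 2176 bp from the nearest summit. Low IgG also raised its RNA-Pol2 ratio, to 2.33 from 63 reads.

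Adm (window chr7:110626661-110628660), the gene of the vasodilator peptide adrenomedullin, had 1182 H3K27me3 against 24 IgG reads and 10 Eed against 30 input reads. Its EedcKO counts were 51 Eed, 24 input, 126 RNA-Pol2 and 42 IgG reads, with 41 in the library labelled H3K27me3 and 1634 in that labelled H3K27ac. Eed over input here was -2.33 on the log2 scale in wild type (95% interval from the counts -3.74 to -1.47) and 0.46 in EedcKO (-0.25 to 1.24), an interval that includes 0. The medians over all windows were -1.22 in wild type and 0.00 in EedcKO, so the 2 ratios do not share a baseline. Sfmbt2, an imprinted Polycomb-related gene, had 747 H3K27me3 and 18 IgG reads, with 14 Eed and 17 input reads and 12 RNA-Pol2 reads. Ovol2, an epithelial zinc finger gene, had 1110 H3K27me3 reads beside 150 Eed reads, and Ankrd63 had 1692 beside 257. Duox2, an oxidase gene of the thyroid, and Mkx, a homeobox gene of tendon, were named after their values were seen, with 1550 and 1107 H3K27me3 reads and 10 and 21 Eed reads. The most marked non-coding windows were 5730488B01Rik with 1544 H3K27me3 reads and 75 Eed reads, Gm46633 with 1107 and 18, and 9530082P21Rik with 1077 and 57. The Gm46633 and Mkx windows overlap, and their counts are not independent.

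Gene families picked by name were counted among windows with H3K27me3 but not H3K27ac. The share without an Eed summit was 6 of 49 among homeobox genes outside the Hox clusters (Cdx4, Dbx2, Meox1, Pbx3, Pou3f1 and Rax), and 1 of 4 among Hox genes (Hoxb13). It was 5 of 32 among bHLH genes (Ferd3l, Hes3, Hes7, Id2 and Nhlh1), 6 of 42 among secreted signals (Dkk1, Dkk2, Fgf17, Fgf21, Lefty1 and Wnt8b) and 7 of 54 among ion channels. These stood beside 13% of the 2155 protein-coding windows and 18.1% over all 2872 windows. The homeobox, bHLH, signal and channel shares, 12.2%, 15.6%, 14.3% and 13%, were near the protein-coding share. The share was 0 of 29 among signal receptors, 0 of 14 among axon guidance genes, 0 of 10 among forkhead genes, 0 of 10 among endothelial genes and 0 of 9 among Sox genes. Small families allow wide limits, up to 11.7% for the receptors and 29.9% for the Sox genes (95% Wilson). Immune receptor and cytokine genes gave 8 of 34 (Cd14, Cd40, Cd72, Il10ra, Il15ra, Il17rc, Tnf and Tnfrsf23), and imprinted genes 2 of 9 (Grb10 and Sfmbt2). Solute carriers gave 6 of 58, matrix genes 2 of 39 and neurotransmitter receptors 1 of 25, and the genes of Polycomb subunits themselves 0 of 6. By chromosome the share ran from 11.5% (24 of 209, chromosome 4) to 28.6% (46 of 161, chromosome 8), with 10 of 44 on the X chromosome.

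The named family members spread widely in strength. Among bHLH genes Hes3, a Notch effector, had 921 H3K27me3 and 39 Eed reads, Ferd3l 478 and 8, and Hes7 of the somite clock 301 and 20, with input reads of 26, 26 and 32. Dkk1, a secreted Wnt antagonist, had 866 H3K27me3 against 41 IgG reads and 12 Eed against 31 input reads. Fgf17 and Wnt8b, signals of the early forebrain and midbrain, had 660 and 653 H3K27me3 reads and 23 and 8 Eed reads. The potassium channel genes Kcnk13 and Kcnj5 had 663 and 509 H3K27me3 reads with 27 and 14 Eed reads. Among the immune genes Cd14, a lipopolysaccharide co-receptor, stood out with 433 H3K27me3 reads, and Il15ra and Cd72 had 160 and 148, against 28, 47 and 47 IgG reads. Scaled for depth, their log2 ratios to IgG were 2.73, 0.59 and 0.48, so that Il15ra and Cd72 were under 2-fold. Over 10 kb from any Eed summit, Col14a1 (chr15:55306750-55308749), a fibril-associated collagen gene, had 757 H3K27me3 and 40 IgG reads with 14 Eed and 29 input reads, 31352 bp from the nearest summit. Irf4, a lymphoid transcription factor gene named after its values were seen, had 651 H3K27me3 and 12 Eed reads at 17867 bp.

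The microRNA windows formed fewer loci than their number. Mature sequences from RefSeq (GRCm38.p6) were found for 14 of the 16 windows. All sequences below except miR-7b-5p, which lies on chromosome 17, come from the miR-290 cluster on chromosome 7. They are shown because 6 of the 16 windows tile that cluster, known for its expression in embryonic stem cells, and share 1 H3K27me3 summit. Seeds, bases 2 to 8, are in capitals, and the first pair and the second pair each share theirs.
miR-290a-5p: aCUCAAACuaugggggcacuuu
miR-292a-5p: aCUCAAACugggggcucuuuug
miR-291a-5p: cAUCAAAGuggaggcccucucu
miR-291b-5p: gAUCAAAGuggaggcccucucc
miR-7b-5p: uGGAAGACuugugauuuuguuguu

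Wild type H3K27me3 over the 6 windows of that cluster ran from 147 to 167 reads, IgG from 20 to 24, Eed from 6 to 10 and input from 15 to 21. The library labelled EedcKO H3K27ac gave 150 to 166 reads, that labelled EedcKO H3K27me3 19 to 31, and EedcKO Eed 39 to 44. The windows overlap, so these are readings of 1 marked stretch and not of 6. Mir7b, a microRNA of neuroendocrine cells, had 90 H3K27me3 and 17 IgG reads with 11 Eed and 19 input reads. The snoRNA windows Snord32a, Snord33, Snord34 and Snord35a, which overlap with Mir5121, held 63 to 67 wild type H3K27me3 reads, below the set's lower quartile of 100. They held 149 to 166 EedcKO RNA-Pol2 reads, against a median of 70 at the set. These counts come from different genotypes and targets, so no change between genotypes is read from them.

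RNA-Pol2, which the choice of windows did not use directly, was near background. The choice did remove windows with a wild type H3K27ac summit, and wild type RNA-Pol2 correlated with H3K27ac at r = 0.7 over the set. A low RNA-Pol2 level may therefore follow in part from the choice. The wild type library had a median log2 ratio to IgG of 0.01 (-0.05 to 0.05) at the 519 windows, 0.14 at windows with an Eed summit and -0.16 over all windows. It was at least 2-fold over IgG at 55 windows (10.6%), where 10.8% of all windows reached that level, so the share was near the background. A wild type RNA-Pol2 summit lay within 1 kb of 8 windows (1.54%, 95% Wilson interval 0.783 to 3.01), against 4.25% with an Eed summit and 4.92% of all. Among named protein-coding genes the highest ratios were at Grn, the progranulin gene (2.82), Pou3f1 (2.33), Ahdc1 (1.87), the FGF antagonist gene Spry1 (1.72) and Ifi30, a lysosomal thiol reductase gene (1.69). Their IgG counts of 10, 6, 10, 8 and 27 were below the median of 30, which raised these ratios. RNA-Pol2 reads at Pou3f1, Ahdc1 and Spry1 were 63, 71 and 52, against a median of 53 at the set, and at Grn and Ifi30 139 and 159. Grn had 139 RNA-Pol2 against 10 IgG reads in wild type and 309 against 52 in EedcKO, with 73 H3K27ac reads and a modest 100 H3K27me3 reads in wild type. Spry1 had 52 RNA-Pol2 reads against 8 IgG, and 180 Eed against 24 input reads.

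RNA-Pol2 in EedcKO relative to wild type was slightly higher at the set. Relative to the median promoter, whose log2 ratio of -0.41 was subtracted, the median was 0.21 (0.16 to 0.26) at 518 windows with at least 1 RPKM on average, and 0.41 at windows with an Eed summit. At least 2-fold higher were 35 windows (6.76%, background 12.2%) and at least 2-fold lower 2 (0.386%, background 7.86%). IgG moved in the same direction, with a median of 0.16 at the set and 0.24 at windows with an Eed summit, and its part in the difference was not tested. Without the subtraction the median was -0.20, the opposite sign, and with the IgG level taken off each library first it was 0.00. Against its own IgG, EedcKO RNA-Pol2 had a median log2 ratio of -0.37 and reached 2-fold at 25 windows (4.82%, background 11.1%). An EedcKO RNA-Pol2 summit was near 85 windows (16.4%), against 32.9% with an Eed summit and 19.7% of all.

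Among named protein-coding genes with at least 20 RNA-Pol2 reads in either library, the largest relative increases were at Ebf1 (log2 1.62, 95% interval from the counts 1.02 to 2.46), Troap (1.55), Pbx3 (1.34), Sall1 (1.24) and Cyp27a1 (1.24). Ebf1 (chr11:44616317-44618316), a transcription factor gene of neurons and B cells, had 22 RNA-Pol2 and 24 IgG reads in wild type and 84 and 17 in EedcKO, with 620 wild type H3K27me3 reads. Sall1, a zinc finger repressor gene, had 74 and 29 in wild type and 206 and 44 in EedcKO, and Pbx3, a Hox cofactor gene, 58 and 20 against 175 and 53. Ebf1, Pbx3 and Sall1 had 34, 165 and 139 wild type Eed reads, with Eed summits 1067 to 1706 bp away. By the same choice of genes the largest decreases were at Gbp7 (-1.14, -1.77 to -0.69), Frem3 (-0.95), Ferd3l (-0.88), Minar1 (-0.83) and Pdzk1ip1 (-0.83). Gbp7, an interferon-induced GTPase gene, had 90 RNA-Pol2 reads in wild type and 45 in EedcKO. These intervals cover counting error of single libraries only.

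Median wild type Eed was 3.04 RPKM at the set and 2.79 RPKM over all windows, and in EedcKO it was 14.2 and 8.64 RPKM. Relative to the median promoter (shift 0.88), the set was higher in EedcKO, with a median log2 ratio of 1.14 (1.07 to 1.23) over 517 windows. At least 2-fold higher were 296 windows (57.3%, background 22.6%) and lower 50 (9.67%, background 30%). The rule required low wild type Eed near the centre, so this direction follows in part from the choice and supports nothing. At windows with an Eed summit the median was -1.61. Against its own input, EedcKO Eed had a median of 0.41 (0.37 to 0.45) at the set, 0.60 at windows with an Eed summit and 0.00 over all windows. It was at least 2-fold over input at 44 windows (8.48%, background 4.66%), and an EedcKO Eed summit lay near 81 (15.6%), against 30.3% with a wild type Eed summit and 9.4% of all. Among named protein-coding genes the highest ratio was at Abcc3, an export transporter gene, with 50 Eed and 7 input reads (2.09, 1.08 to 3.61), then Tnxb (1.63), Exoc3l4 (1.54), Ikzf1 (1.53) and Rin1 (1.46). Their EedcKO input counts of 7 to 13 were low beside the median of 20. Over the 519 windows EedcKO Eed correlated with wild type RNA-Pol2 at r = 0.61, H3K27ac at 0.604 and input at 0.493. With wild type Eed r was 0.232 and with H3K27me3 0.166. The highest EedcKO Eed summit score was 26.3, against 282 in wild type. Whether the EedcKO values reflect Eed binding was not tested.

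Taking the EedcKO histone libraries as labelled, H3K27me3 was lower and H3K27ac higher at the set than in wild type. As labelled, EedcKO H3K27me3 against wild type H3K27me3 gave a relative median of -2.03 (-2.17 to -1.86), with 0 windows at least 2-fold higher and 436 of 519 (84%) lower, where 6.8% and 13% of all windows passed. The rule chose windows high in the wild type library, so a fall there is in part fixed by the choice. As labelled, EedcKO H3K27ac against wild type H3K27ac gave 2.19 (2.05 to 2.42), with 423 windows (81.5%, background 18.2%) higher and 0 lower (background 11.7%). The rule also removed windows with a wild type H3K27ac summit, so a rise there is in part fixed by the choice.

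With these 2 libraries in each other's place, both medians lay under 2-fold. The library labelled EedcKO H3K27ac against wild type H3K27me3 gave a relative median of 0.35 (0.30 to 0.40), with 4 windows at least 2-fold higher (background 2.55%) and 1 lower (background 4.49%). The library labelled EedcKO H3K27me3 against wild type H3K27ac gave -0.12 (-0.18 to -0.07), with 15 windows higher (background 13.1%) and 27 lower (background 6.17%). At windows with an Eed summit the same comparisons gave 0.45 and -0.12. Summits called in the EedcKO library labelled H3K27ac were found within 1 kb of 341 windows (65.7%, 95% Wilson interval 61.5 to 69.7), against 82.5% with an Eed summit and 5.92% of all windows. Those called in the EedcKO library labelled H3K27me3 were found near 2 windows, Fkbp11 and Gm35025 (0.385%), against 1.18% of all. Over its IgG, the library labelled EedcKO H3K27ac had a median log2 ratio of 1.03 and was at least 2-fold at 267 windows (51.4%, background 5.84%). That labelled EedcKO H3K27me3 had a median of -0.17 and reached 2-fold at 12 (2.31%, background 5.91%).

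**Figure D5:**
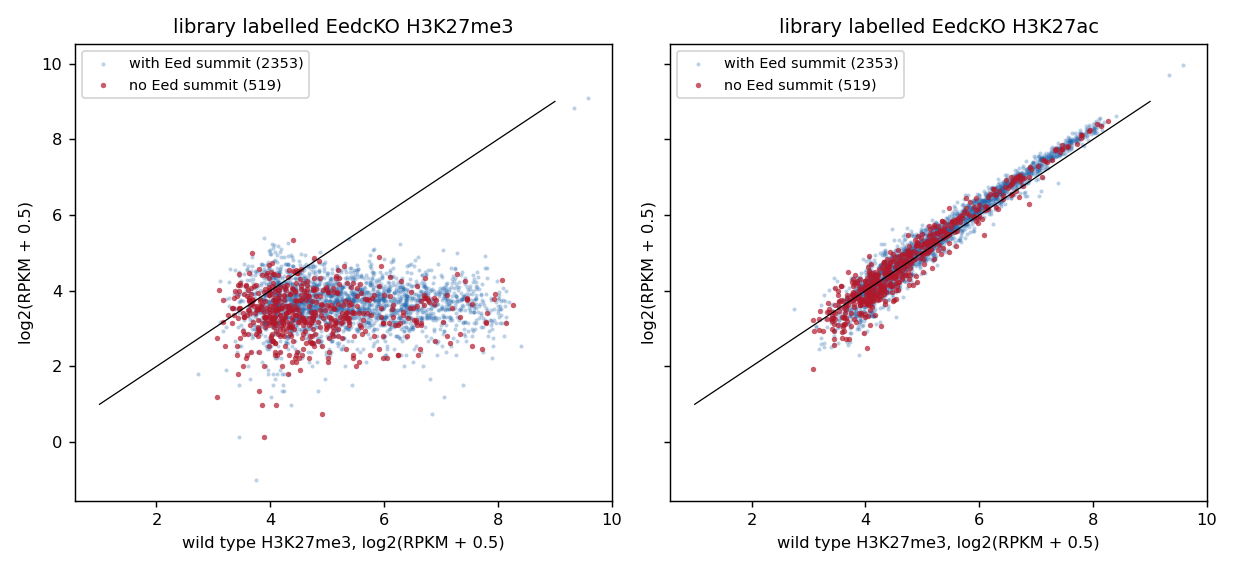
Signal in the library labelled EedcKO H3K27me3 (left) and in the library labelled EedcKO H3K27ac (right) on the vertical axes against wild type H3K27me3 on the horizontal axes, all as log2(RPKM + 0.5), for the 519 windows (red) and the 2353 with an Eed summit (blue). The line marks equal values. Points follow the line on the right, with r = 0.963 in red, and do not on the left, with r = 0.0204.

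In the EedcKO library labelled H3K27ac, summits were a larger share of windows beyond 5 kb from wild type Eed summits, while the level was highest at 1 to 2 kb. Its summits were near 59.1% of the windows 1 to 2 kb from a wild type Eed summit, 54.8% at 2 to 5 kb, 73.9% at 5 to 10 kb and 75.8% beyond 10 kb. Its median level in the same order was 27, 20.3, 22.9 and 18.9 RPKM, and its median log2 ratio to IgG 1.37, 0.89, 1.0 and 0.84. EedcKO RNA-Pol2 summits went the other way, from 21.4% and 20% to 17.4% and 7.84%. Of the 53 windows with at least 500 wild type H3K27me3 reads, all 53 were at least 2-fold over IgG in the library labelled EedcKO H3K27ac, with medians of 739 and 934 reads. The control libraries gave relative medians between genotypes of -0.07 for input and 0.16 for IgG at the set.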

How the data were processed

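Eed and input (X-ChIP) and H3K27me3, H3K27ac, RNA-Pol2 and IgG (CUT&Tag) were measured in wild type and EedcKO forebrain, with 1 library each. Per the submitters' processing notes, the tools were MACS2 (2.2.7.1), ChIPseeker (1.22.1), deepTools (3.4.0) and Bowtie2 (2.4.1), with no roles given, and the build mm10, in which all coordinates are given. The deposited tables hold whole-number counts of reads per promoter window, although named as RPKM, and were used as counts. The deposited summit lists give a -log10 score per summit, whether of p or q is not stated, and it is the authors' own value used only to describe or filter.

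Counts were converted to RPKM with each library's promoter total, and log2 ratios used a pseudocount of 0.5 RPKM. Ratios between genotypes were set relative to the median window with a mean of at least 1 RPKM. A 2-fold difference is a description of 2 libraries. Intervals (95%) are order-statistic for medians, Wilson for shares and exact binomial for count ratios, and they cover counting error or spread over windows, not biological replicates. PCR duplicates could not be separated. Gene types came from RefSeq, matched for 414 of the 519 windows. The steps were tested on simulated counts. Python 3.11.15, numpy 2.4.6, pandas 2.3.3 and scipy 1.17.1 were used.

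The windows and gene lists were chosen with earlier results of these data known. Named genes were protein-coding windows of the set with the most extreme H3K27me3, Eed or RNA-Pol2 ratios, those nearest the 1 kb limit, and up to 3 of each gene list by H3K27me3 count, with the 3 most marked non-coding windows. Alternatives changed the distance, score minimum, pseudocount, scaling, minimum level, CpG threshold and the pairing of the EedcKO histone libraries.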

Additional observations from a re-analysis of the deposited data

How the results depend on the processing

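No paired analysis was possible because each genotype has 1 library per target, and no replicate can be left out. Of 110 alternative values, 58 stayed within the interval or 1.5 times of the reported value and the others moved further. In all, 11 had the opposite sign. Of these, 5 came with the EedcKO histone libraries in each other's place, where reported values of at least 2-fold changed sign. That exchange gave 0.35 for H3K27me3 and -0.12 for H3K27ac. Combined with no shift it gave 0.06 and -0.01, and with the control subtracted first 0.02 and 0.00, both combinations chosen after seeing the data. The other 6 were changes of values under 2-fold. They were wild type H3K27ac and RNA-Pol2 over IgG at 2 kb and with an H3K27me3 score of at least 10 (-0.03 for RNA-Pol2), EedcKO RNA-Pol2 over IgG with equal library medians, and RNA-Pol2 between genotypes with no shift.

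The number of windows was 539 at 0.5 kb and 510 at 2 kb, of which 308 and 355 were among the 519, and 725 when Eed and H3K27ac summits needed a score of at least 10. It moved past 1.5 times, to 234, when H3K27me3 summits needed that score. Median log2 ratios to control moved as follows. With equal library medians they were, in wild type, -0.15 (Eed), 2.28 (H3K27me3), 0.41 (H3K27ac) and 0.21 (RNA-Pol2). In EedcKO they were 0.54 for Eed, -0.02 for the library labelled H3K27me3, 2.51 for that labelled H3K27ac and 0.44 for RNA-Pol2. At 0.5 kb they were -0.96, 1.30, 0.19 and 0.14 in wild type, and 0.54 for EedcKO Eed, -0.04 for the library labelled EedcKO H3K27me3 and -0.11 for EedcKO RNA-Pol2. At 2 kb they were -1.88, 1.02, -0.16 and -0.10 in wild type, and 0.31 for Eed and -0.52 for RNA-Pol2 in EedcKO. With an H3K27me3 score of at least 10 they were -1.58 for wild type Eed, 1.99 for H3K27me3, -0.09 for H3K27ac and 1.98 for the library labelled EedcKO H3K27ac. With an Eed and H3K27ac score of at least 10 they were -1.47 for Eed, 0.14 for H3K27ac, 0.07 for RNA-Pol2 and -0.26 for EedcKO RNA-Pol2. Pseudocounts of 0.1 and 1 RPKM gave -1.87 and -1.60 for wild type Eed.

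Between genotypes, leaving out the shift gave, as labelled, 2.02 (Eed), -1.18 (H3K27me3), 1.15 (H3K27ac) and -0.20 (RNA-Pol2). Subtracting the control first gave 2.62, -3.84, 3.13 and 0.00. Without a minimum Eed gave 1.26 and RNA-Pol2 0.15, at least 20 reads gave 0.99 for Eed, and a pseudocount of 1 RPKM gave 2.04 for H3K27ac. The share of CpG-rich promoters was 35.0% at a threshold of 0.5 (80.4% with Eed) and 9.8% at 0.75 (43% with Eed). The cause of these moves was not tested. The median of 12 wild type Eed reads per window limits the precision at single windows.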
